A study of Homo sapiens with 6 samples.

Results

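The neutrophil-attracting CXC chemokines CXCL8, CXCL1, CXCL2, CXCL3, CXCL5 and CXCL6 were followed in MDA-MB-231 cells, a triple-negative human breast cancer line, that lacked the kinases MRCKα, MRCKβ or both. These 6 genes were selected by name from the 17064 genes of the deposited expression table because RNA of the group was higher in the double knockout libraries, so this difference is given as a description and not as a tested result. CXCL8, CXCL1, CXCL2 and CXCL3 each have a row in that table, and CXCL5 and CXCL6 have none and were not analysed here.

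RNA was sequenced from 6 libraries. There were 2 vector control libraries, from separate transductions of the empty lentiCRISPRv2 vector, 1 MRCKα KO library, 1 MRCKβ KO library and 2 double knockout (DKO) libraries. The knockouts were made with lentiCRISPRv2 carrying guides against the coding regions of MRCKα and MRCKβ, the DKO once with the guide 1 and once with the guide 2 of each gene, and the sources used here do not say which DKO library carries which. All cells had therefore been infected with the lentivirus, put under drug selection, grown to subconfluence and used as pools in which no clones were picked. The libraries held between 10349898 and 10657857 estimated reads, and between 12911 and 13038 genes with at least 10 reads. The correlation of log2 scaled counts over 13014 genes was lowest between vector 1 and vector 2 (r = 0.9752), and was 0.9852 between DKO 1 and DKO 2. The RNA of the targeted genes was still present in the knockout pools, with CDC42BPA (MRCKα) at 23.3 to 36.4 FPKM and CDC42BPB (MRCKβ) at 23.4 to 30.3 FPKM over the 6 libraries, so that RNA levels do not check these labels. The study checked its MDA-MB-231 knockouts by immunoblot and reports that deletion was very efficient at the protein level. Levels are given in FPKM, fragments scaled to the length of the transcript and the size of the library, so that genes of different length can be compared.

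Chemokines of this group carry the amino acids glutamate, leucine and arginine (ELR) just before the first cysteines of the CXC motif. They bind CXCR2 on neutrophils, and CXCL8 and CXCL6 also bind CXCR1, which draws these cells out of the blood towards the source and makes the same ligands angiogenic. In epithelial and carcinoma cells the genes are classical targets of NF-κB and AP-1, switched on by interleukin-1 and tumor necrosis factor, and their mRNAs carry AU-rich elements that make them short-lived. MDA-MB-231 cells are known to secrete CXCL8 without a stimulus.

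The 6 genes lie together, with PF4V1, PF4 and PPBP between them, in the CXC cluster of chromosome 4q13. In GENCODE v29 on GRCh38, CXCL8 spans chr4:73740506-73743716, CXCL6 chr4:73836497-73849064 and CXCL1 chr4:73869393-73871242 on the plus strand. On the minus strand follow CXCL5 at chr4:73995642-73998779, CXCL3 at chr4:74036589-74038807 and CXCL2 at chr4:74097035-74099293. The sequence before each start is shown because all 6 genes share a stretch there. The following stretches of 29 bases come from the RefSeq promoter sequences (GRCh38.p14, 6 of 6 genes matched by symbol) and are written 5′ to 3′ on the strand of the gene, with the shared NF-κB-type letters GGAATTTCC in capitals.
CXCL8 (chr4:73740468-73740496, plus strand): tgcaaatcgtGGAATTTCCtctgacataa
CXCL6 (chr4:73836579-73836607, plus strand): ctgagttcagGGAATTTCCccagcatccc
CXCL1 (chr4:73869305-73869333, plus strand): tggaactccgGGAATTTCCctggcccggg
CXCL5 (chr4:73998749-73998777, minus strand): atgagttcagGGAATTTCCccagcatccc
CXCL3 (chr4:74038749-74038777, minus strand): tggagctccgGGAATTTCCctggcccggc
CXCL2 (chr4:74099254-74099282, minus strand): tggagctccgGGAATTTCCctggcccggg

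The capital letters began between 77 bases (CXCL2) and 91 bases (CXCL8) before the RefSeq transcription start. GGAATTTCC, searched on both strands, occurred in 162 of 35116 RefSeq promoter windows of 300 bases (0.461%), which cover 250 bases before to 50 bases after a start. The letters beside it fell into 3 groups. CXCL1, CXCL2 and CXCL3 continued with ctggcccgg, CXCL5 and CXCL6 with ccagcatccc, and CXCL8 with neither. Over 109 bases aligned on the shared letters without gaps, CXCL1 and CXCL3 were identical at 92.7% of positions and CXCL5 and CXCL6 at 90.8%. CXCL1 and CXCL2 matched at 76.1% and CXCL2 and CXCL3 at 71.6%, whereas CXCL8 matched the others at only 25.7% to 34.9%. The stretches of CXCL8 and CXCL1 lie before every exon of these genes in GENCODE v29. Those of CXCL6, CXCL5 and CXCL2 lie inside a 5′ UTR of a longer transcript there, and that of CXCL3 inside an exon.

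The CXCL8 promoter also held the letters TGANTCA, to which AP-1 binds, and a TATAAA box. TGANTCA started 137 bases before the start and occurred in 7.71% of all windows on either strand. TATAAA, searched on the strand of the gene, started 31 bases before the start and occurred in 7.33% of windows, and neither occurred in the windows of the other 5 genes. The stretch of 87 bases that holds both the AP-1-type and the NF-κB-type letters of CXCL8, in capitals, is chr4:73740419-73740505 on the plus strand of GRCh38.p14.
CXCL8 upstream: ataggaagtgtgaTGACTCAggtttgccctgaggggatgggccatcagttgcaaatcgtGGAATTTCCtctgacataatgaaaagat
These matches describe letters in a window, and binding was not measured.

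CXCL8 (interleukin-8), the prototype of the group, was the most abundant of the 4 listed genes in all 6 libraries. Its level was 7.31 FPKM in vector 1 and 17.3 in vector 2, and the single knockouts of MRCKα and MRCKβ had 28.5 and 19.6. DKO 1 reached 36.5 FPKM and DKO 2 reached 115. All 4 knockout libraries thus lay above both vector libraries. In vector 1 the gene ranked at the 54.2nd percentile of all genes by FPKM and in DKO 2 at the 96.6th. These values rest on 133 and 306 reads in the vector libraries and on 651 and 2057 reads in the DKO libraries. The mean was 12.3 ± 7.07 FPKM in vector and 75.5 ± 55.3 in DKO (SD, n = 2 each), a ratio of 6.14. The fit across all genes (quasi-likelihood fit of edgeR on the estimated read counts) gave a log2 fold change of 2.59 (SE 0.61). It was 3.35 without vector 2, 3.19 without DKO 1 and 1.55 without DKO 2.

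CXCL1, the GROα chemokine that acts through CXCR2, came next. It measured 2.21 and 6.52 FPKM in vector 1 and 2, 5.52 and 6.29 FPKM in the MRCKα and MRCKβ knockouts, and 12.01 and 37.0 FPKM in DKO 1 and 2. Both DKO libraries were above both vector libraries, and both single knockout libraries lay between the vector libraries. The means were 4.37 ± 3.05 FPKM in vector and 24.5 ± 17.7 in DKO (SD, n = 2 each), 5.62 times as high, with a fitted log2 fold change of 2.47 (SE 0.67). It depended on each library, with 1.88 without vector 1, 3.47 without vector 2, 3.06 without DKO 1 and 1.44 without DKO 2.

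CXCL2, a close relative of CXCL1 with the same receptor, had 0.98 and 2.06 FPKM in the vector libraries. The MRCKα knockout had 3.12 FPKM and the MRCKβ knockout 3.38, and the double knockouts had 6.11 (DKO 1) and 7.95 (DKO 2). It was the only listed member whose DKO libraries were close to each other, 1.30-fold apart. Its mean was 1.52 ± 0.764 FPKM in vector and 7.03 ± 1.30 in DKO (SD, n = 2 each), 4.63 times as high, and the fitted log2 fold change was 2.18 (SE 0.43), or 2.78 without vector 2.

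CXCL3, the GROγ chemokine and the least abundant listed member in every library, ranged from 0.72 FPKM in vector 1 to 5.63 in DKO 2. Between them lay vector 2 with 1.38 FPKM, DKO 1 with 1.91, MRCKβ KO with 2.00 and MRCKα KO with 2.18. DKO 1 was no higher than the single knockout libraries, and only DKO 2 stood clearly above the rest. The means were 1.05 ± 0.467 FPKM in vector and 3.77 ± 2.63 in DKO (SD, n = 2 each), a ratio of 3.59, with a fitted log2 fold change of 1.83 (SE 0.65). The counts behind it were small, from 8.85 reads in vector 1 to 67.9 in DKO 2. Without DKO 2 its fitted log2 fold change was 0.86.

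**Figure D1:**
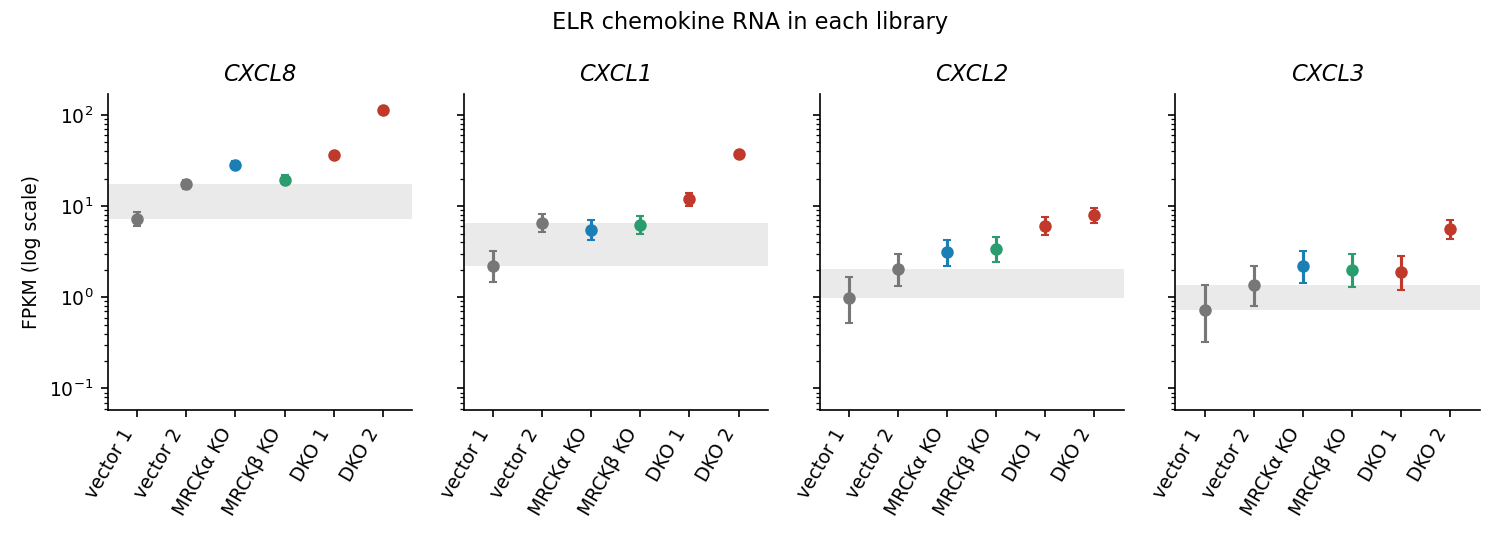
FPKM (log axis) of CXCL8, CXCL1, CXCL2 and CXCL3 in each of the 6 libraries, 1 point per library, with bars for the 95% interval of counting error and a grey band from vector 1 to vector 2. Both DKO libraries lie above the band for all 4 genes, by the least for CXCL3 in DKO 1 (1.91 against 1.38 FPKM).

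The order of the levels was the same in all 6 libraries, with CXCL8 first, then CXCL1, CXCL2 and CXCL3. The 95% counting intervals of the neighbouring CXCL2 and CXCL3 overlapped in every library but DKO 1, as in MRCKα KO with 2.22 to 4.26 and 1.42 to 3.20 FPKM. Those of CXCL1 and CXCL2 overlapped only in vector 1, and those of CXCL8 and CXCL1 in no library. CXCL8 took 62.7% to 72.5% of the summed FPKM of the 4 genes, with the highest share in MRCKα KO. The sum itself was 11.2 and 27.3 FPKM in vector, 39.3 and 31.3 FPKM in the MRCKα and MRCKβ knockouts, and 56.5 and 165 FPKM in DKO. The make-up of the mixture thus differed less between libraries than its amount, although CXCL8 was 5.17 times as abundant as CXCL1 in MRCKα KO and 2.66 to 3.31 times elsewhere. In RNA from a whole culture, more expressing cells and more RNA per cell cannot be told apart.

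The DKO levels were set against the difference between the vector libraries, since these carry the same empty vector and still differed. Vector 2 exceeded vector 1 by 2.37-fold for CXCL8, 2.95-fold for CXCL1, 2.10-fold for CXCL2 and 1.92-fold for CXCL3. The median gene differed by 1.18-fold, and 6.06% of 12562 genes with a mean of at least 0.5 FPKM differed at least 2-fold between the vector libraries, among them CXCL8, CXCL1 and CXCL2. CXCL1 was at the 97.9th percentile of this difference and CXCL3 at the 93.2nd. The counting interval of this ratio left out 1 for CXCL8 (1.93 to 2.93) and CXCL1 (1.93 to 4.85), and narrowly for CXCL2 (1.02 to 4.37). For CXCL3 it was 0.762 to 4.70, so that its vector libraries could not be told apart at this depth. CXCL8 and CXCL1, and less clearly CXCL2, were thus among the more variable genes between control transductions. The percentiles were not matched for read count.

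DKO 2 exceeded DKO 1 by 3.14-fold for CXCL8, 3.08-fold for CXCL1 and 2.95-fold for CXCL3. Of all genes, 3.81% differed at least 2-fold between the DKO libraries. Vector 2 and DKO 2 were the higher library of their pair for all 4 listed members. The share of all genes with this order was not counted. Over 13123 genes the deviations of vector 1 and DKO 1 from their group means correlated with r = 0.302. Over all genes, DKO 2 correlated with vector 2 at r = 0.9844 and with vector 1 at 0.9786, and the part of this likeness in the chemokine levels was not tested. The guides differ between the DKO libraries and cannot be told apart from other differences between them.

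The lowest DKO library was divided by the highest vector library to ask how far DKO lay outside the vector pair. This ratio was 2.97 for CXCL2, 2.11 for CXCL8, 1.84 for CXCL1 and 1.38 for CXCL3. From the reads, DKO 1 was 1.42 times vector 2 in CXCL3 with a counting interval of 0.719 to 2.88, so that these libraries could not be told apart at this depth. The gap was larger than the vector difference for CXCL2 (2.97 against 2.10) and smaller for CXCL8 (2.11 against 2.37), CXCL1 and CXCL3. For scale, both DKO libraries were above both vector libraries in 17.1% of the 12562 genes, among them all 4 listed members. The lowest DKO library was at least 2 times the highest vector library in 18 genes (0.143%), among them CXCL2 and CXCL8. Of 12557 genes above 0 in a vector library, CXCL2 ranked 3, CXCL8 14, CXCL1 27 and CXCL3 93 by this ratio. Nothing follows from these shares about the members, which were chosen on the same libraries.

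**Figure D2:**
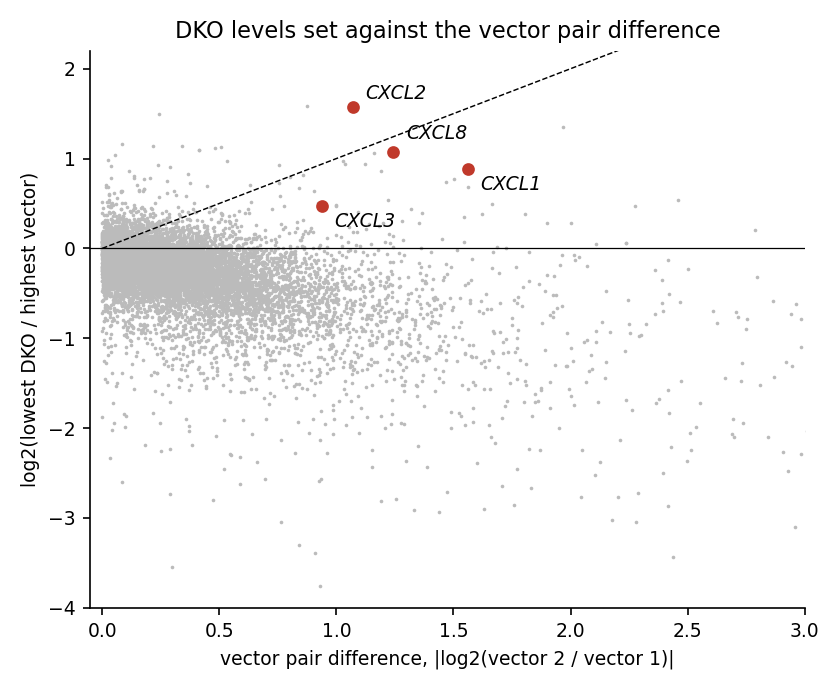
Each point is a gene with a mean of at least 0.5 FPKM and values above 0 in the vector and DKO libraries (12508 genes, of which 50 lie beyond the axes). The horizontal axis gives the absolute log2 ratio of the vector libraries and the vertical axis the log2 ratio of the lowest DKO to the highest vector library, with a dashed line where both are equal. CXCL2 lies above the dashed line, and CXCL8, CXCL1 and CXCL3 lie below it and above 0.

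The study's own selection discarded genes more than 2-fold apart between replicates. Under that filter alone 125 of 12254 genes (1.02%) were at least 2-fold higher in DKO by the ratio of means, and none of them was an ELR chemokine. The study also left out poorly expressed genes, at a level it does not state, so the 125 genes are not its own set. With a mean of at least 1 FPKM in either group 31 genes were at least 2-fold higher, again without an ELR chemokine. CXCL8 and CXCL1 were discarded by the vector pair and by the DKO pair, CXCL2 by the vector pair at 2.10-fold, and CXCL3 by the DKO pair. Without the replicate filter 671 of 15481 genes (4.33%) passed, including all 4 listed members, whose log2 ratios of means ran from 1.84 for CXCL3 to 2.62 for CXCL8. In the edgeR fit, 0 of 13123 genes (0%) had a Benjamini-Hochberg adjusted p under 0.05, 179 genes (1.36%) had an unadjusted p under 0.05 upward and 134 downward, and DESeq2 called 4 genes. The absence of any adjusted call covers the ELR chemokines as well. The p-values measure the spread between 2 libraries a group.

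The single knockout libraries have no replicate, and their ratios carry intervals of counting error only, which compare libraries and not conditions. MRCKα KO was above both vector libraries in CXCL8, CXCL2 and CXCL3, as in 33% of 12555 genes, and MRCKβ KO was above both in the same 3 genes, as in 30.5%. All 4 knockout libraries were above both vector libraries for CXCL8, CXCL2 and CXCL3, as in 6.73% of genes. Against vector 2, the higher vector library, CXCL8 in MRCKα KO was 1.65 times as high (95% interval 1.43 to 1.91). In MRCKβ KO the ratio was 1.13 (0.969 to 1.32), so that a difference from vector 2 was not detectable at this depth. MRCKα KO exceeded MRCKβ KO 1.46-fold in CXCL8 (1.27 to 1.67), and this was the only listed member for which the counting interval between the single knockouts left out 1.

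CXCL1 in MRCKα KO was at 0.847 times vector 2 (0.602 to 1.19) and in MRCKβ KO at 0.961 times (0.694 to 1.33). For CXCL2 these ratios were 1.497 (0.889 to 2.56) and 1.65 (0.992 to 2.79), and for CXCL3 they were 1.62 (0.838 to 3.24) and 1.46 (0.744 to 2.94). None of these differed from vector 2 beyond counting error. Against vector 1 every single knockout ratio was higher, between 2.55 (1.61 to 4.15) for CXCL1 in MRCKα KO and 3.90 (3.22 to 4.76) for CXCL8 in MRCKα KO. Apart from CXCL8 in MRCKα KO, which exceeded both vector libraries, the counting intervals thus left out 1 against vector 1 and not against vector 2. DKO 1 was above both single knockout libraries for CXCL8, CXCL1 and CXCL2 and not for CXCL3.

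CXCL1, CXCL2 and CXCL3 are near copies, so reads of 50 bases may be shared between them. Of the 50-base windows of their transcripts in GENCODE v29, 60 of 1048 (5.73%) in CXCL1, 108 of 1169 (9.24%) in CXCL2 and 54 of 1026 (5.26%) in CXCL3 occurred in another gene, in each case another of the 3. CXCL8 had 0 of 1656 windows in common with any other gene. Summed as 1 feature, the 3 genes had 3.91 and 9.96 FPKM in vector, 10.8 and 11.7 FPKM in the MRCKα and MRCKβ knockouts, and 20.03 and 50.6 FPKM in DKO. The fitted log2 fold change of the sum was 2.33 (SE 0.56), the vector libraries were 2.55-fold apart, and the lowest DKO was 2.01 times the highest vector library. The summed reads used in the fit do not depend on how reads were split among the 3 genes. The summed FPKM can shift with the split, since the transcripts of CXCL1, CXCL2 and CXCL3 differ in length (1097, 1218 and 1075 bases).

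None of the 3 neighbours on 4q13 with enough reads for a test was higher in both DKO libraries than in both vector libraries. Epiregulin (EREG), an EGF receptor ligand, had 4.95 and 4.55 FPKM in vector, 3.54 and 6.42 FPKM in the MRCKα and MRCKβ knockouts, and 3.42 and 2.75 FPKM in DKO. It was lower in both DKO libraries than in both vector libraries, with a log2 fold change of -0.64 (SE 0.19, edgeR unadjusted p = 0.0155, adjusted p = 1.00). Amphiregulin (AREG, 6.30 to 15.5 FPKM over the libraries) and MTHFD2L (4.29 to 6.11 FPKM), the gene next to CXCL2, had log2 fold changes of 0.01 (SE 0.34) and -0.13 (SE 0.26). PPBP, the ELR chemokine of platelets, lies between CXCL1 and CXCL5 and had 1 read in vector 2 and 0 in the others, where up to 3 reads are compatible with a count of 0. RASSF6 and BTC stayed below 0.5 FPKM.

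Of the receptors, CXCR2, which binds all ELR chemokines, was measured at 0.56 and 1.45 FPKM in vector, 0.65 and 0.37 FPKM in the MRCKα and MRCKβ knockouts, and 0.89 and 0.43 FPKM in DKO, on 10.1 to 38.04 reads. The vector and DKO libraries overlapped (log2 fold change -0.62, SE 0.65, adjusted p = 1.00). CXCR1 has no row and was not analysed here. CXCR4, the receptor of CXCL12, was highest in MRCKα KO (15.6 FPKM) and DKO 1 (10.6 FPKM). It had 4.86 and 5.23 FPKM in vector, 4.70 FPKM in MRCKβ KO and 2.83 FPKM in DKO 2. The DKO libraries lay on either side of the vector libraries, unlike those of the ELR ligands. Of 11 other CXC ligands 7 have a row, and CXCL16, the transmembrane chemokine, was the only one with enough reads to be tested (log2 fold change -0.06, SE 0.42, adjusted p = 1.00). CXCL10 and CXCL11, ligands of CXCR3 that are induced by interferon, were at most at 0.24 and 0.42 FPKM. Both were higher in both DKO libraries than in both vector libraries, on counts near the floor. CXCL11 had 0.12 FPKM (2 reads) in each vector library and 0.42 FPKM (7 reads) in each DKO library. CXCL10 had 0 reads in the vector libraries, and 2 and 3 reads in DKO 1 and DKO 2. None of the remaining ligands of this list with a row had this order.

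Cytokines, receptors and signal proteins around the induction of these chemokines were read from a list of 21 genes, of which 17 had enough reads. Not every gene of the list is an inducer, since it also holds an interleukin-1 receptor antagonist and other chemokines. No gene of the list passed an adjusted p of 0.05. Below 0.05 without adjustment lay 2 of the 17 genes, both higher in DKO, beside 1.36% of all genes. Of 18 genes with a mean of at least 0.5 FPKM, both DKO libraries were above both vector libraries in 7, beside 17.1% of all genes, and below them in 3, beside 1553 of 12562. The median log2 fold change was 0.02, beside -0.002 over all genes tested. The 2 genes with the low p were interleukin-1α (IL1A) and GM-CSF (CSF2), which acts on neutrophils and their precursors. IL1A had 0.70 and 1.70 FPKM in vector, 1.34 and 1.11 FPKM in the MRCKα and MRCKβ knockouts, and 2.10 and 5.09 FPKM in DKO (log2 fold change 1.56, SE 0.57, adjusted p = 1.00). CSF2 had 2.30 and 5.36 FPKM in vector, 1.87 and 6.43 FPKM in the single knockouts, and 7.77 and 12.5 FPKM in DKO (log2 fold change 1.38, SE 0.49, adjusted p = 1.00). As with CXCL8, vector 2 and DKO 2 were the higher library of their pair for both, an order whose share over all genes was not counted. IL1B, with 4.61 and 8.98 FPKM in vector and 9.08 and 14.8 in DKO, had a log2 fold change of 0.79 (SE 0.38). TNF was at or below 0.34 FPKM in all libraries. Without DKO 1 the median of the list was -0.03.

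The list of transcription factors of these promoters and NF-κB regulators held 24 genes, all tested. No adjusted p lay under 0.05. The unadjusted p lay there for 5 genes, all of them higher in DKO (RELB, NFKBIA, NFKBIE, TNFAIP3 and JUNB), beside 1.36% of all genes. Both DKO libraries were above both vector libraries for 11 of the 24 genes and below for 2, beside 17.1% and 1553 of 12562 of all genes, and the median log2 fold change was 0.27. TNFAIP3 (A20), the feedback inhibitor of NF-κB, measured 1.74 and 2.47 FPKM in vector, 4.32 and 3.11 FPKM in the single knockouts, and 5.41 and 8.56 FPKM in DKO. Its lowest DKO library was 2.19 times its highest vector library, and its log2 fold change was 1.73 (SE 0.29, edgeR unadjusted p = 0.000917, adjusted p = 1.00). RELB, the NF-κB subunit of the non-canonical pathway, had 4.23 and 7.52 FPKM in vector, 7.10 in each single knockout, and 9.23 and 16.01 in DKO (log2 fold change 1.08, SE 0.37). FOSB, a partner of JUN in AP-1, had 0.87 and 0.51 FPKM in vector and 1.94 and 1.01 in DKO (log2 fold change 1.06, SE 0.48). RELA, the NF-κB subunit of the canonical pathway, had 50.9 and 55.4 FPKM in vector and 59.8 and 63.7 in DKO (log2 fold change 0.17, SE 0.12). Without DKO 2 the median of the list was 0.16.

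Factors around the decay of AU-rich mRNAs were tested as a list of 10 genes. Not every gene of the list promotes decay, since it also holds ELAVL1, kinases and the phosphatase DUSP1. Its median therefore gives no direction of decay. No adjusted p lay under 0.05, the unadjusted p did for 3 genes that were higher in DKO (ZFP36, KHSRP and ELAVL1), beside 1.36% of all genes. Both DKO libraries were above both vector libraries for 5 of the 10 genes and below for 1, beside 17.1% and 1553 of 12562 of all genes, and the median log2 fold change was 0.21. ZFP36 (tristetraprolin), which promotes decay of such mRNAs, had 10.9 and 12.1 FPKM in vector, 11.3 and 13.9 FPKM in the single knockouts, and 16.1 and 17.3 FPKM in DKO (log2 fold change 0.52, SE 0.16, adjusted p = 1.00). DUSP1, a phosphatase of p38, varied from 16.5 FPKM in vector 2 to 47.6 in vector 1 and had a log2 fold change of 0.50 (SE 0.50). ZC3H12A (regnase-1), a nuclease that degrades inflammatory mRNAs, had a log2 fold change of 0.44 (SE 0.28). Without vector 2 the median of the list was 0.11.

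The genes whose pattern was most like CXCL8 were read from the correlation of log2(FPKM + 0.1) over the 6 libraries, among 1198 genes with a mean of at least 1 FPKM and a range of at least 1 on that scale. They were IL24 (r = 0.982), a cytokine of the IL-10 family, TNFAIP3 (0.979), RELB (0.976), MPP7 (0.972), HLX (0.972), CXCL3 (0.971), CXCL1 (0.970) and HDAC9 (0.969). CXCL2 ranked 13 with an r of 0.938. All these values share the same 6 libraries and describe them, and the DKO libraries had fixed the choice of CXCL8. IL24 had 6.07 and 13.4 FPKM in vector, 15.4 and 12.5 FPKM in the single knockouts, and 16.1 and 32.5 FPKM in DKO. HDAC9, a histone deacetylase, had 10.99 and 12.7 FPKM in vector, 16.7 and 15.4 in the single knockouts, and 21.8 and 29.2 in DKO. Each of the 8 genes was lowest in vector 1 and highest in DKO 2, as CXCL8 was. By ranks (Spearman), 16 genes lay at or above the tied place of rank 8, and 4 of the 8 genes (TNFAIP3, HDAC9, IL24 and MPP7) were among them.

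**Figure D3:**
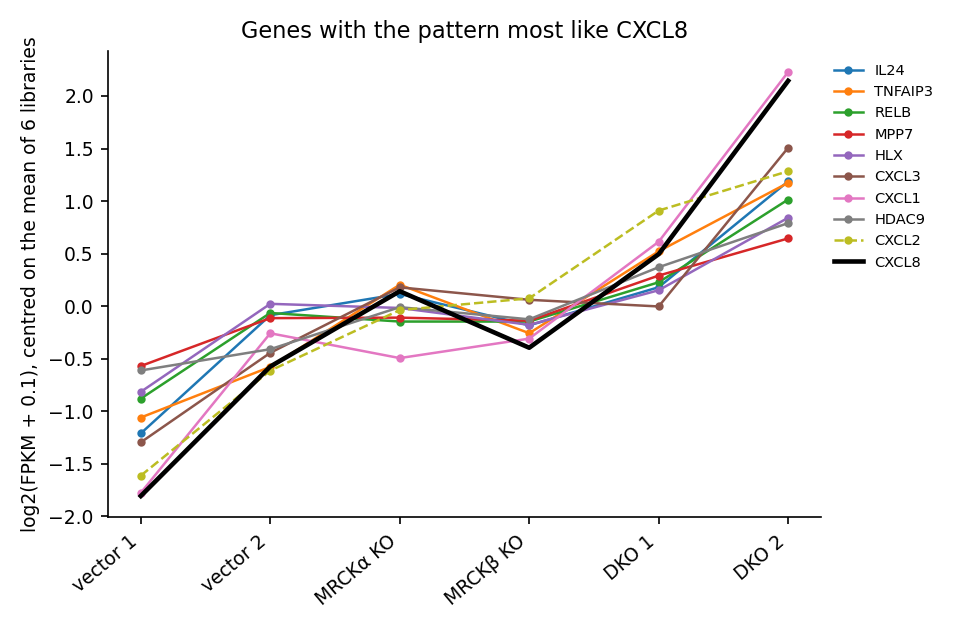
Centred log2(FPKM + 0.1) in the 6 libraries for CXCL8 (black), the 8 genes most like it (solid lines) and CXCL2 (dashed, rank 13). Lines join the values of 1 gene and mark no order of the libraries, and all genes drawn are lowest in vector 1 and highest in DKO 2.

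The label of the cells was checked against markers. VIM, KRT8, KRT18 and CD44 were at 111 FPKM or above in all libraries, KRT7 and KRT19 at 21.5 to 62.2, EPCAM at 0.73 to 2.62 and ERBB2 at 13.2 to 16.2. PGR was at most at 0.03 and ESR1 at most at 0.87, as in a line that lacks these hormone receptors. Of 13 leukocyte markers 7 have a row, and their summed level was 77.7 and 108 FPKM in vector, 74.6 and 90.3 FPKM in the single knockouts, and 82.4 and 99.5 FPKM in DKO, nearly all of it from CD68 and LYZ, which are not limited to leukocytes. PTPRC (CD45) was at 0.28 to 1.24 FPKM, CD14 at 0.13 to 1.23, and S100A9 and CD3E at 0.34 or below. ITGAM (CD11b), a marker of neutrophils and other myeloid cells, had 0 reads in the vector and single knockout libraries, where up to 3 are compatible with a count of 0, and 4 and 9 reads in DKO 1 and DKO 2. Its part in the chemokine levels was not tested.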

How the data were processed

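Total RNA of MDA-MB-231 pools from subconfluent cultures was sequenced for the authors as single reads of 50 bases. Expected counts, as deposited, are estimates of reads per gene without normalization, and 61.0% to 61.8% of them were whole. FPKM values, as deposited by the authors, came from the sequencing provider and are rounded to 2 decimals. The submitters' processing notes name HISAT, Bowtie2, RSEM and GRCh38.p11, without roles. Counts were rounded, filtered with filterByExpr, normalized by TMM and fitted with the quasi-likelihood test of edgeR 4.0.16 (R 4.3.3) on the 4 vector and DKO libraries, with Benjamini-Hochberg adjustment over all genes and a threshold of 0.05. Each SE is the absolute log2 fold change divided by the square root of the quasi-likelihood F, which borrows spread from all genes. DESeq2 gave larger SEs for the chemokines, at 0.945 for CXCL8, 1.02 for CXCL1, 0.577 for CXCL2 and 0.822 for CXCL3. The script was tested on simulated data. DESeq2 1.42.0, limma 3.58.1, other normalizations and filters, a replicate block and leaving out each replicate were alternatives. Intervals are exact 95% intervals for counting error only, as molecular identifiers were not used. Levels were compared as FPKM, without a pseudocount except in the correlations.

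The chemokines, lists and tests were chosen with earlier results of these data known. Genes named are the chemokines, CXCR1 and CXCR2, of each list the 3 genes of largest absolute fold change with a mean of at least 1 FPKM, markers at 1 FPKM or above in any library, and the 8 genes most like CXCL8. Markers below that level (PGR, ESR1, ITGAM, S100A9 and CD3E), RELA, TNF, PPBP, CXCL10, CXCL11, RASSF6, BTC and the genes with an unadjusted p under 0.05 were named after their values were seen.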

Additional observations from a re-analysis of the deposited data

How the results depend on the processing

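The log2 fold changes of CXCL8, CXCL1, CXCL2 and CXCL3 were positive in all 51 alternatives. That sign was largely fixed in advance, since the genes were chosen as higher in DKO and both DKO libraries lay above both vector libraries. The values moved beyond the spread between replicates in 3 of the alternatives, and CXCL3 had no value where at least 10 counts were required in every library. Leaving out 1 replicate, which leaves a lone sample assumed to vary like the pair, gave 1.55 (without DKO 2) to 3.35 for CXCL8, 1.44 to 3.47 for CXCL1, 1.74 to 2.78 (without vector 2) for CXCL2 and 0.86 (without DKO 2) to 2.40 for CXCL3. Both DKO libraries were above both vector libraries for all 4 genes in library-scaled counts too. The count of genes past the adjusted threshold, 0 in edgeR, was 4 with DESeq2 (ICAM1, TNFAIP3, RPS10-NUDT3 and TNFAIP8L2-SCNM1). With replicate numbers as a block it was 5 (CXCL8, CXCL1, ICAM1, IL24 and TNFAIP3). CXCL8 and CXCL1 were chosen on these same libraries, so that their place among the 5 is no test of them. Fits with a replicate left out rest on a lone sample in 1 group, and their counts of genes are not given here. The deviations of vector 1 and DKO 1 from their group means correlated with r = 0.302 over 13123 genes, and the ratios within a number were 4.99 and 6.62 for CXCL8 and 5.43 and 5.68 for CXCL1, 6.24 and 3.86 for CXCL2 and 2.65 and 4.08 for CXCL3. With only 2 pairs and no label that ties a number to a shared batch or day, the pairing was not taken as part of the design. By the fold-change rule, the number of chemokines went from 0 to 4 with no replicate filter, and was 0 to 1 with a replicate left out (CXCL2 without either vector library, CXCL3 without DKO 1). The median of the list of cytokines and receptors reversed to -0.028 without DKO 1, and reached 0.20 without vector 1. Summing CXCL1, CXCL2 and CXCL3, and the medians of the lists under each alternative, were added after seeing the data. The causes were not tested. With 2 libraries a group and fewer than 30 reads of CXCL1, CXCL2 and CXCL3 in vector 1, depth and replication both limit these values.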

Other observations

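The promoter letters shared by the ELR chemokines were looked up in the other genes that carry them, a set chosen after these values were seen. Of the 162 RefSeq promoters with GGAATTTCC, 82 belong to genes with a row in the table. Without the ELR chemokines 62 of these genes were tested, of which 33 had a positive log2 fold change in DKO, with a median of 0.02 beside -0.002 over all 13123 genes tested. Both DKO libraries were above both vector libraries in 16 of 60 genes of the set with a mean of at least 0.5 FPKM (26.7%), against 17.1% of all genes. No test was made of this difference.

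LTB, which encodes lymphotoxin-β, a membrane cytokine of the TNF family, stood furthest from the vector pair by the measure used for the chemokines. It had 0.11 and 0.12 FPKM in vector, 0.82 and 0.65 FPKM in the MRCKα and MRCKβ knockouts, and 1.43 and 1.42 FPKM in DKO, so that the lowest DKO library was 11.8 times the highest vector library. Its vector levels were near the floor, so the size of this ratio, and with it the rank, is uncertain. EGR1, an immediate early transcription factor, ranked 2 ahead of CXCL2, with 12.5 and 6.81 FPKM in vector, 23.2 and 18.1 FPKM in the single knockouts, and 37.5 and 70.8 FPKM in DKO. ICAM1, the adhesion molecule to which neutrophils bind, ranked 9, with 9.21 and 11.7 FPKM in vector, 17.1 and 18.5 in the single knockouts, and 25.6 and 29.9 in DKO. The study's own list of genes most raised in DKO also holds LTB and EGR1, as well as TNFAIP3 and CXCL11. From functional annotation of its changed genes, the study proposes that immune response genes were regulated together in DKO and MRCKα KO. LTB, EGR1 and ICAM1 were named after their values were seen, and each lay above both vector libraries in all 4 knockout libraries.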
